A study of Mus musculus with 4 samples.

Results

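Plb1 and Gm36840 are 2 of the 32285 genes counted by single-cell RNA sequencing in mouse ovary. Both were chosen by their UMI counts, which were higher in ovaries with a deletion of Fosl2 in granulosa cells (GCs) than in control ovaries, so their difference between genotypes is described below and not tested. UMIs (molecules counted once by their tag) of each gene were read per cell and per library in GC states, luteal, interstitial, theca, immune and vascular cells. The level in immune and endothelial cells served as the estimate of the background.

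The series holds 4 libraries of whole ovaries from 8-week-old female littermates. The 2 control libraries, labelled WT, came from Fosl2F/F mice, whose Fosl2 coding exons are flanked by LoxP sites on both alleles. The 2 Fosl2cKO libraries came from mice with the same floxed alleles plus Cyp19a1-Cre, in which the aromatase promoter drives the recombinase. The Cre line is on a C57BL/6J background, and the background of the floxed line and the number of ovaries per library are not given in the sources used here. After filtering, 8150 and 19575 cells of Fosl2F/F and 6760 and 7053 cells of Fosl2cKO were kept, with 104303269 to 111314200 UMIs per library. The second Fosl2F/F library stood apart by its cell number and by its median of 3655 UMIs per cell, where the others had 11177 to 12465. Pairs of libraries shared 10 to 38 cell barcodes. Cell groups are named from marker genes and called "-like", and levels are given as CPM, the UMIs of a gene over all UMIs of the same cells in the usual counts-per-million unit, with error as SD over 2 libraries where a mean is given. Each genotype has 2 libraries and the labels name no animals, so the p-values of other genes given below measure only the spread between these samples.

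Plb1 encodes phospholipase B1, an enzyme anchored in the plasma membrane that releases fatty acids from both positions of phospholipids and is best known from the brush border of the intestine. Gm36840 is annotated as an antisense transcript of unknown function. In the ovarian follicle, aromatase is made by GCs of antral follicles, and GCs become luteal cells after ovulation. Whether the luteal-like cells counted here descend from cells in which the Cyp19a1 promoter was active was not tested.

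The members lie beside the targeted gene. On chromosome 5 (GRCm38), Fosl2 spans 32135801 to 32157842 on the plus strand and Plb1 spans 32232708 to 32366520 on the same strand, 74865 bp downstream, with 0 genes of the files annotated between them. Gm36840 lies on the minus strand from 32320764 to 32354883, inside the span of Plb1. Of its 250 annotated exon bases, 134 also lie in Plb1 exons. The methods name Cell Ranger with its default parameters, and the sources used here do not state whether counting used strand. Without strand, reads over these shared bases could not be assigned to one gene. The libraries tag the 3′ ends of transcripts, so the start used by a counted Plb1 molecule is not known.

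Because both genes were high in the same libraries, the 250 bases before their starts in RefSeq (GRCm38.p6) are shown, 5′ to 3′ on the strand of the gene, with letters matching TGANTCA, the AP-1 site that Fosl2 binds as a member of the AP-1 family, in capitals. Plb1 has 2 such starts. The window of the first start lies at chr5:32238834-32239083 within an intron of the longer GENCODE model, that of the second at chr5:32353330-32353579, and that of Gm36840 at chr5:32354830-32355079 on the minus strand, where it overlaps coding bases of Plb1.

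Plb1 first start: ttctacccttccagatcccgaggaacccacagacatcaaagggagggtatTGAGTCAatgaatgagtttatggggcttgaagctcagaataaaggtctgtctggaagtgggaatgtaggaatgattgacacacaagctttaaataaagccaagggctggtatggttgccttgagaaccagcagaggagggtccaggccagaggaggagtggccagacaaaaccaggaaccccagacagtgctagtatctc

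Plb1 second start: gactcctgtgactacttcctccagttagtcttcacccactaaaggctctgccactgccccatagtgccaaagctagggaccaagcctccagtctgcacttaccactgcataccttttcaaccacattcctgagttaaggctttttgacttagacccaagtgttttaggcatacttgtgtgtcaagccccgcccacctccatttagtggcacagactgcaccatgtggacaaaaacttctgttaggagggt

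Gm36840 start: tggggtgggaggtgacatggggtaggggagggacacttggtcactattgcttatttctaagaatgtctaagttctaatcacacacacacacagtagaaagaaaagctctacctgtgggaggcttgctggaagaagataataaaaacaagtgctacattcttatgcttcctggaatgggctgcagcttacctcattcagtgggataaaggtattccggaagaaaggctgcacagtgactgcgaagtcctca

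The motif, which reads the same on both strands, was found once, 200 bases before the first Plb1 start, and in neither of the other windows. It was present in 2217 of 32851 windows of the same length over all RefSeq starts (6.75%). The second Plb1 start and the Gm36840 start lie 1249 bp apart on opposite strands.

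Plb1 was close to absent from the Fosl2F/F ovaries and abundant in the Fosl2cKO ovaries. Over the cells kept, Plb1 counted 23 and 17 UMIs in Fosl2F/F and 39785 and 35729 UMIs in Fosl2cKO, which is 0.213 and 0.163 CPM against 357 and 340 CPM. No library of one genotype came near those of the other. Single Fosl2F/F cells held at most 2 Plb1 UMIs, whereas a Fosl2cKO cell held up to 682. Gm36840 followed the same pattern at a much lower level, with 0 and 4 UMIs in Fosl2F/F against 617 and 394 UMIs in Fosl2cKO.

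In GC-like cells, which numbered 4574, 6626, 2200 and 2397 in the order Fosl2F/F 1 and 2 and Fosl2cKO 1 and 2, Plb1 counted 7 and 2 UMIs against 23816 and 11816. The level was 0.0978 and 0.0520 CPM in Fosl2F/F and 477 and 244 CPM in Fosl2cKO. The ratio of the pooled CPM was 4430-fold, with a 95% interval of 2333 to 9688 that covers counting error only. With a library left out it ranged from 2985-fold to 6972-fold, the highest without the first Fosl2F/F library, since 9 UMIs stand in the Fosl2F/F libraries. The first Fosl2cKO library was the higher one (mean 360 ± 164 CPM), and both lay far above either Fosl2F/F value.

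Luteal-like cells, made up of a cluster led by Hsd17b7 and Runx2 and a cluster led by Akr1c18 and Onecut2, held the highest levels. Plb1 counted 3 UMIs in 173 cells and 6 UMIs in 1242 cells of Fosl2F/F, against 14974 UMIs in 330 cells and 22824 UMIs in 290 cells of Fosl2cKO. That is 0.855 and 0.372 CPM against 2143 and 3631 CPM. Here the second Fosl2cKO library was the higher one, the reverse of GC-like cells. The markers of this class also differed between the 2 libraries. In its cells with 10 or more Plb1 UMIs, luteal markers summed to 2331 and 6102 CPM and theca markers to 4255 and 1839 CPM. Interstitial markers summed to 2130 and 2066 CPM and GC markers to 1992 and 1601 CPM. The first Fosl2F/F library held most of its luteal-like cells in the Akr1c18 cluster (111 of 173), whereas the Hsd17b7 cluster held 898 of 1242, 315 of 330 and 258 of 290 cells of the other libraries. Within the Hsd17b7 cluster Plb1 was at 2167 and 3766 CPM in Fosl2cKO, and within the Akr1c18 cluster at 1742 and 2364 CPM, from 15 and 32 cells. Luteal-like and GC-like cells together were 37.4% and 38.1% of the Fosl2cKO cells and held 97.5% and 97.0% of the Plb1 UMIs. Of the UMIs of all genes, GC-like cells held 44.9% and 46.0% and luteal-like cells 6.28% and 5.98%.

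**Figure D1:**
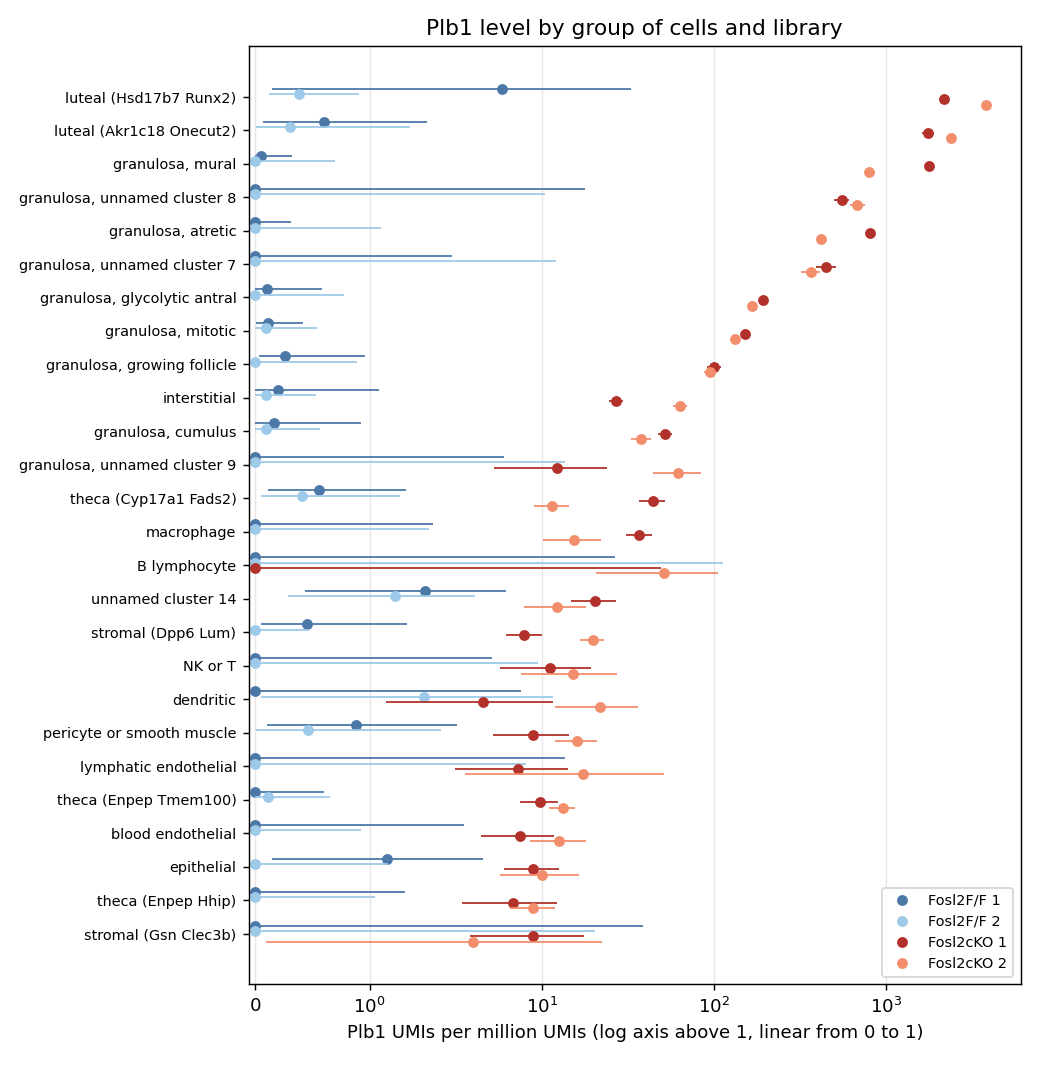
Plb1 level (CPM, horizontal axis logarithmic above 1 and linear from 0 to 1) for each group of cells but oocyte-like cells in each library, with points for libraries and lines for exact 95% Poisson intervals of the count. Groups are sorted by their mean in the Fosl2cKO libraries, from luteal-like cells at the top, and the Fosl2F/F points stay at or below 5.88 CPM in every group.

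The GC states were not alike. In mural GC-like cells, the Lhcgr-expressing GCs of the antral follicle wall, Plb1 was at 1772 and 790 CPM in Fosl2cKO and rested on 1 UMI in 1 of the Fosl2F/F libraries. Atretic GC-like cells, marked by Ghr and Itih5, followed with 801 and 418 CPM. In both states the first Fosl2cKO library was the higher one.

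Glycolytic antral GC-like cells (Cox4i2, Ldha) were at 193 and 165 CPM and mitotic GC-like cells at 151 and 132 CPM. GC-like cells of growing follicles, marked by Amh, were at 99.8 and 95.02 CPM, and cumulus GC-like cells, which surround the oocyte, were lowest among the named states with 51.9 and 37.6 CPM. In the order of the means, the ranges of the 2 Fosl2cKO libraries did not overlap between glycolytic antral, mitotic and growing follicle GC-like cells, nor between the last of these and the groups below, whereas those of cumulus and interstitial-like cells overlapped. Mural values lay below those of the main luteal cluster led by Hsd17b7, and their range overlapped that of the small Akr1c18 cluster above and that of atretic GC-like cells below. Of 3 GC clusters left unnamed, the one led by Pcdh9 and Dgkb was at 549 and 677 CPM, a shallow one led by Gm26917 and Gm35188 at 448 and 363 CPM, and a small cycling one led by Pecam1 and Cdc20 at 12.2 and 61.8 CPM.

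Over these groups of cells, the order of Plb1 was not that of Cyp19a1, the gene whose promoter drives the Cre. Cyp19a1 was at 80.6 and 168 CPM in mural GC-like cells of the Fosl2cKO libraries and at 1.72 and 2.86 CPM in luteal-like cells, where Plb1 was highest. Atretic GC-like cells held 6.93 and 5.90 CPM of Cyp19a1 beside their 801 and 418 CPM of Plb1, while glycolytic antral GC-like cells held 47.7 and 47.3 CPM of Cyp19a1 beside 193 and 165 CPM of Plb1. Cumulus GC-like cells were low for both, with 3.23 and 3.08 CPM of Cyp19a1. Present Cyp19a1 RNA is not a record of earlier Cre activity, and recombination in single cells was not tested.

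**Figure D2:**
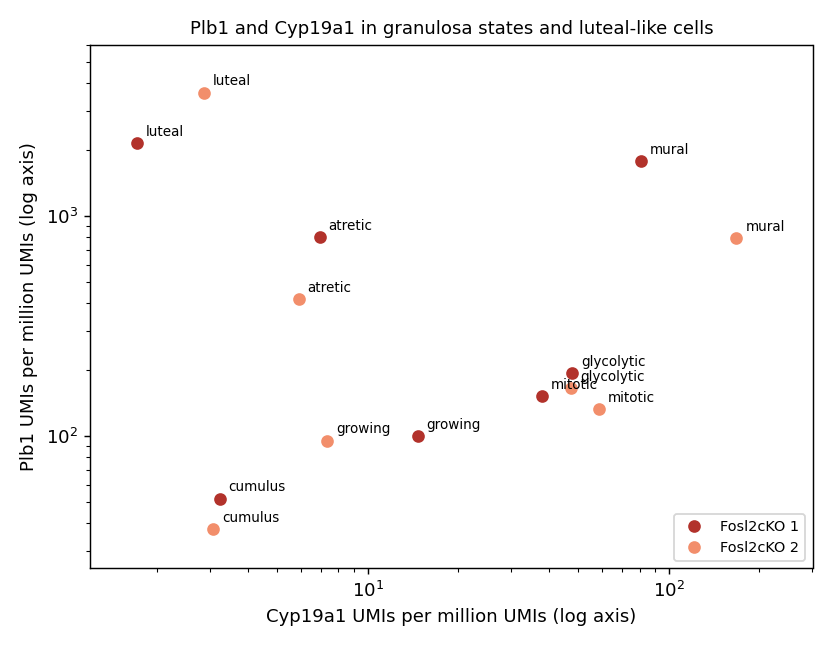
Plb1 level (vertical, log axis) against Cyp19a1 level (horizontal, log axis), both in CPM, with a point for each named GC state and for luteal-like cells in each of the 2 Fosl2cKO libraries. Luteal-like and atretic points lie high for Plb1 at Cyp19a1 levels of 1.72 to 6.93, and mural points lie high for both.

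The number of UMIs per cell showed the same grading. In luteal-like cells 297 of 330 and 265 of 290 cells held 10 or more Plb1 UMIs, with medians of 32 and 53 per cell. Among mural GC-like cells 75.7% and 47.2% of cells did, among atretic GC-like cells 50.3% and 19.2%, and among cumulus GC-like cells 0.935% and 0.291%. Some cells of the high groups held none: 3.07% and 5.94% of mural and 0.909% and 2.41% of luteal-like cells had 0 Plb1 UMIs, and luteal-like cells with under 10 were shallow, with median totals of 4757 and 2399 UMIs against 16576 and 16251 in the rest.

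**Figure D3:**
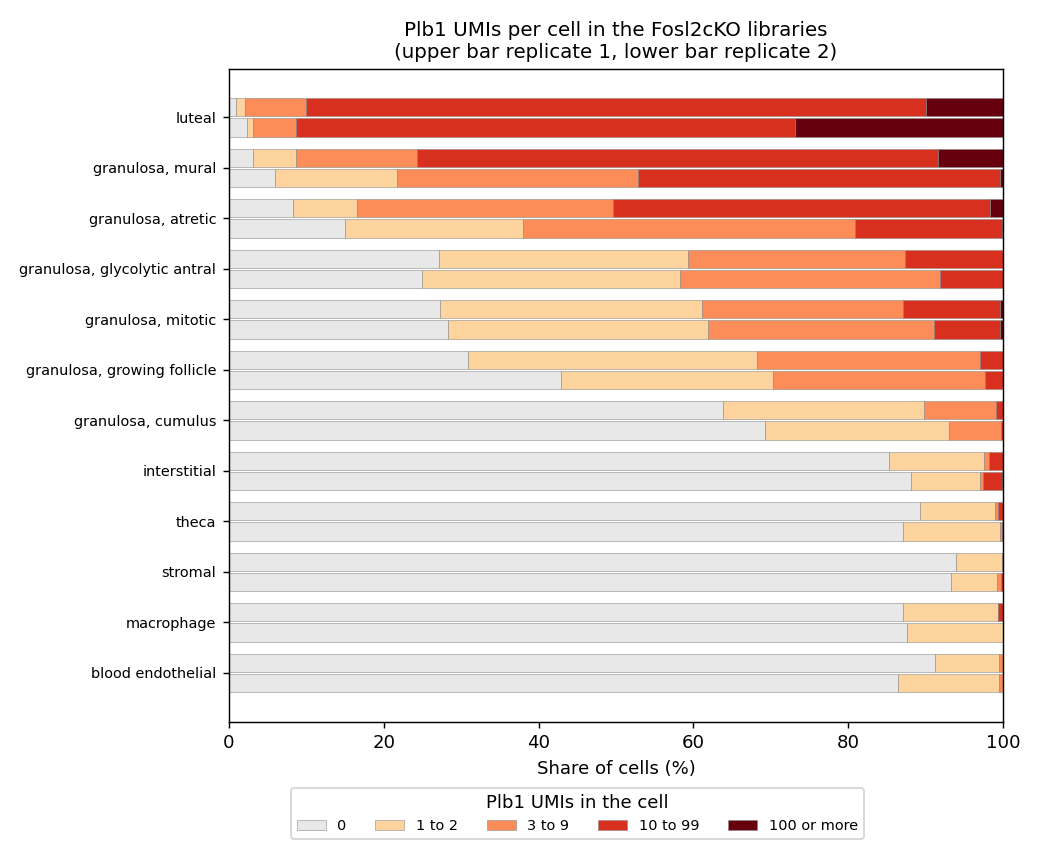
Share of cells (%) by number of Plb1 UMIs in the cell for 12 groups in the Fosl2cKO libraries, the upper bar of each pair for replicate 1 and the lower for replicate 2. The share of cells with 0 UMIs was lowest in luteal-like cells, at 0.909% and 2.41%, and highest in stromal-like cells, at 93.9% and 93.3%. It was 91.2% and 86.4% in blood endothelial-like cells.

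Since shares of cells with a UMI follow depth, cells were thinned to 2000 UMIs each and shallower cells left out. On that scale 95.3% and 98.5% of luteal-like, 83.5% and 64.2% of mural, 64.0% and 42.04% of atretic, 18.7% and 25.8% of glycolytic antral and 8.96% and 6.80% of cumulus GC-like cells of the Fosl2cKO libraries held a Plb1 UMI. For GC-like cells as a whole the share was 34.4% and 29.6%, where unthinned cells gave 68.8% and 69.0%. Macrophage-like cells, which should lack the gene, gave 4.04% and 2.59%, so the cumulus share stood least above this background. In Fosl2F/F, 1 of 4444 and 1 of 6053 thinned GC-like cells held a Plb1 UMI (0.0225% and 0.0165%).

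Plb1 was also counted in cells outside these lineages, at a low level. Immune-like and endothelial-like cells together held 0 and 1 UMIs in Fosl2F/F and 172 and 94 UMIs in Fosl2cKO, or 18.9 and 15.7 CPM. A single macrophage-like cell of the first Fosl2cKO library held 77 of those 172 UMIs, together with 67 UMIs of 10 GC marker genes. Of its 22839 UMIs, 474 were of macrophage markers, and 4, 5 and 8 were of luteal, interstitial and theca markers. Whether it is a doublet was not tested. Leaving out cells of 10 or more Plb1 UMIs, the immune and endothelial level in that library was 9.38 CPM. Set against the whole library, the immune and endothelial level was 5.28% and 4.63% for Plb1. For 9 genes of GCs that these cells should not express (Fshr, Inha, Inhba, Amh, Cyp19a1, Hsd17b1, Kctd14, Fst and Foxl2) the same ratio ranged from 3.22% to 10.0% in the first and from 3.47% to 11.4% in the second Fosl2cKO library, with medians of 5.96% and 5.42%. The ratio of Plb1 was within the range of these GC transcripts, and 3 and 4 of the 9 genes lay below it. In the first library this place rested on 2 macrophage-like cells with 87 of the 172 UMIs. Without them the ratio of Plb1 there was 2.62%, below all 9 genes, which ranged from 3.23% to 10.1% in the same cells. The 2 cells were left out for holding 10 or more Plb1 UMIs, a choice that itself lowers Plb1. No cells were left out for their counts of the 9 genes, so this place below them is not a like comparison. The second library held no immune-like or endothelial-like cells of 10 or more Plb1 UMIs.

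**Figure D4:**
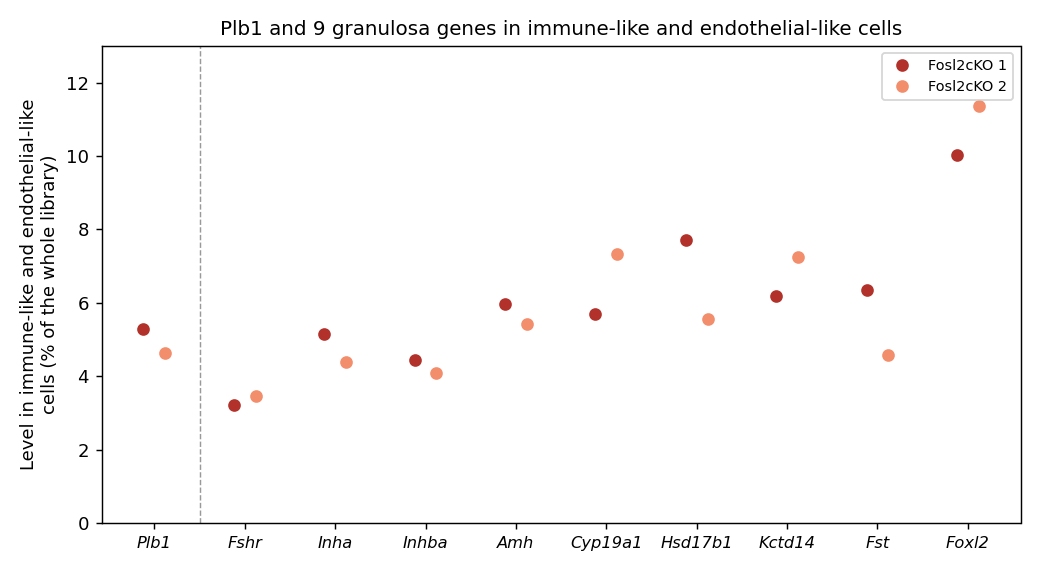
Level in immune-like and endothelial-like cells as a percentage of the level in the whole library (vertical axis) for Plb1, left of the dashed line, and 9 GC genes, with points for the 2 Fosl2cKO libraries. Plb1, at 5.28% and 4.63%, falls between Fshr, the lowest at 3.22% and 3.47%, and Foxl2, the highest at 10.0% and 11.4%. Without 2 macrophage-like cells of the first library, left out for their Plb1 count, Plb1 was at 2.62% there, below all 9 genes. That choice itself lowers Plb1, and no cells were left out for the 9 genes.

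Theca-like cells (18.5 and 11.7 CPM), stromal-like cells (8.00 and 19.2 CPM), epithelial-like cells (8.85 and 10.1 CPM) and pericyte or smooth muscle-like cells (8.92 and 15.9 CPM) lay in the range of the immune and endothelial groups, and their order among these did not hold beyond the spread of 2 libraries. Among theca-like cells the cluster led by Cyp17a1 and Fads2 had 43.9 and 11.4 CPM. In the first library 4 of its 143 cells carried 84.7% of its Plb1 UMIs, and without cells of 10 or more UMIs the cluster had 6.995 and 8.36 CPM. Over all theca-like cells, the 5 and 2 cells with 10 or more Plb1 UMIs had GC markers at 1559 and 1015 CPM, where the others had 352 and 433 CPM. Interstitial markers were higher in these cells too, at 938 and 943 against 356 and 309 CPM, as were luteal markers at 806 and 1039 against 401 and 660 CPM and theca markers at 4700 and 9075 against 3035 and 4273 CPM. Macrophage markers were lower, at 17.9 and 0 against 38.1 and 21.9 CPM, from 3 and 0 UMIs in the cells with 10 or more Plb1 UMIs. NK or T-like cells had 11.1 and 15.2 CPM, and blood endothelial-like cells had 7.45 and 12.6 CPM. An unnamed cluster with Myh11, Tagln and Acta2 had 20.2 and 12.2 CPM. The 20 and 17 oocyte-like cells held 0 Plb1 UMIs, which at their median depths of 1716 and 4500 UMIs allows up to 15.0% and 17.6% of cells with a UMI.

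Interstitial-like cells, the steroidogenic stroma marked by Abcb1b and Hao2, had 27.1 and 63.4 CPM of Plb1 in Fosl2cKO, against 0.203 and 0.0959 CPM in Fosl2F/F. This level came from few cells. Of 761 and 511 interstitial-like cells, 14 and 13 held 10 or more Plb1 UMIs, and these carried 71.3% and 88.9% of the UMIs of the class. Without them the level was 8.04 and 7.21 CPM, at or under that of immune and endothelial cells. The 14 and 13 cells kept the interstitial markers of their class, with 3338 and 3372 CPM over 4 markers, where the other interstitial-like cells had 3686 and 3671 CPM. Their GC markers summed to 492 and 1260 CPM against 463 and 692 CPM in the others, their luteal markers summed to 602 and 2353 CPM against 957 and 2087 CPM, and their median depth was 44818 and 11763 UMIs against 17709 and 12806. Whether they are doublets or cells of another origin was not tested. Over all cells outside the GC-like and luteal-like classes, 23 of 4230 and 19 of 4366 cells held 10 or more Plb1 UMIs, and without them Plb1 was at 8.01 and 10.5 CPM.

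Gm36840 was highest in the groups where Plb1 was highest. It was at 33.8 and 38.2 CPM in luteal-like cells of Fosl2cKO (236 and 240 UMIs) and 0 UMIs were counted in luteal-like cells of Fosl2F/F, so that it was at least 235-fold higher by a floor of 3 counts over the group. In GC-like cells it counted 0 and 2 UMIs in Fosl2F/F and 362 and 143 in Fosl2cKO (7.25 and 2.95 CPM). The ratio there was 283-fold, with a counting interval of 77.8 to 2339. It rested on 2 Fosl2F/F UMIs, and it was 98.8-fold without the first and at least 122-fold without the second Fosl2F/F library, and 163-fold without the first Fosl2cKO library. Mural GC-like cells had 25.6 and 9.58 CPM, atretic 13.2 and 4.63 CPM, and cumulus 0.903 and 0.810 CPM. Immune-like and endothelial-like cells held 6 and 0 Gm36840 UMIs.

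Between GC-like and luteal-like cells, the ratio of the members varied less than either of them. For every 100 Plb1 UMIs there were 1.52 and 1.21 Gm36840 UMIs in GC-like cells and 1.58 and 1.05 in luteal-like cells of the 2 Fosl2cKO libraries. The ratio differed more between libraries than between these 2 classes. Their 95% intervals overlapped within each library (1.37 to 1.69 and 1.38 to 1.79 in the first, 1.02 to 1.43 and 0.922 to 1.19 in the second). Smaller groups varied more: over both Fosl2cKO libraries, the unnamed GC cluster led by Gm26917 held 16 Gm36840 beside 469 Plb1 UMIs. The one led by Pcdh9 held 6 beside 817. Of 399 and 268 Fosl2cKO cells with a Gm36840 UMI, 96.5% and 97.0% also held Plb1. These cells had median counts of 34 and 40.5 Plb1 UMIs, where the other cells had a median of 0. In luteal-like cells, where nearly all cells hold Plb1, the medians were 41 and 73 with Gm36840 against 28 and 33.5 without it, and cells with Gm36840 were deeper (17525 and 19482 against 14761 and 12627 median UMIs). In the second Fosl2F/F library none of the 4 cells with a Gm36840 UMI held Plb1.

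The targeted gene, Fosl2, did not pass the test in either class. In GC-like cells it was at 161 and 167 CPM in Fosl2F/F and at 167 and 115 CPM in Fosl2cKO, so the first Fosl2cKO library was close to the controls and the second below them. The log2 fold change was -0.25 ± 0.20 (SE), with an adjusted p of 1.0 in edgeR's quasi-likelihood test. In luteal-like cells Fosl2 was at 162 and 192 CPM against 198 and 302 CPM. The LoxP sites lie around exons 2 to 4 of 4, and the position of the downstream site relative to the counted 3′ tags is not given in the sources used here, so whether this level checks the deletion is not known. The authors reported depletion of Fosl2 protein in GCs of Fosl2cKO mice by immunoblot, which these RNA counts do not measure.

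Within GC-like cells of Fosl2cKO, thinned to 2000 UMIs, Fosl2 was higher in cells with a Plb1 UMI than in cells without. It was at 262 against 123 CPM in the first and 165 against 105 CPM in the second library, ratios of 2.12 (1.83 to 2.46) and 1.57 (1.32 to 1.86), with intervals of counting error only. Before thinning only 31.2% and 31.0% of GC-like cells held 0 Plb1 UMIs, so many of the cells without a UMI here did hold Plb1. Within the mural state the ratios were 1.58 and 1.70 and within the atretic state 1.78 and 1.69. Within the cumulus state they were 1.56 and 1.88, from 16 and 10 Fosl2 UMIs in the cells with Plb1, and within the mitotic state 1.02 and 1.49. Within the glycolytic antral state they were 0.768 and 0.905 and in growing follicles 1.43 and 0.494, from 6 to 11 Fosl2 UMIs in the cells with Plb1. The intervals of the mural and atretic ratios lay above 1 in both libraries, and those of the other named states included 1. Cyp19a1 was also higher in the thinned GC-like cells with a Plb1 UMI, at 53.0 and 91.2 against 24.3 and 27.2 CPM. It was higher in both libraries within the mural (88.6 and 235 against 42.4 and 73.5 CPM) and mitotic states (61.7 and 121 against 38.3 and 41.7 CPM). In the atretic, cumulus, glycolytic antral and growing follicle states its direction differed between the libraries. These directions rested on 0 to 9 Cyp19a1 UMIs in the cells with Plb1. Cells are not replicates, and neither these differences nor those between states were tested.

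Other genes around Fosl2 were tested in the same cells, and their CPM are scaled by TMM, edgeR's library scaling. The files hold 37 further genes annotated within 1 Mb of Fosl2, of which 28 passed the filter on low counts. By edgeR 0 of them were called in GC-like cells, beside 1 of all 17270 genes tested (0.00579%). That gene was Plb1, whose call restates how it was chosen, and the same holds for the other classes below, since Plb1 is among the genes called in 7 of 14 classes. An unadjusted p under 0.05 was found for 2 of the 28 (Ywhah and Mrpl33), beside 4.78% of all genes. DESeq2 called 1 of them, Ywhah, beside 175 of all 17270 genes (1.01%). Their median log2 fold change was -0.02, as was that of all genes tested. The coding gene next upstream, Babam2, which encodes a subunit of the BRCA1-A complex, was at 209 and 179 CPM in Fosl2F/F and 180 and 174 CPM in Fosl2cKO. The coding gene next downstream of Plb1 and Gm36840, Ppp1cb, a catalytic subunit of protein phosphatase 1, was at 240 and 240 CPM against 231 and 234 CPM, with a log2 fold change of -0.05 ± 0.15.

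Ywhah, which encodes the eta form of the 14-3-3 adaptor proteins and starts 883 kb from the start of Fosl2, is one of these neighbours. In GC-like cells it was at 48.1 and 43.6 CPM in Fosl2F/F and 101 and 142 CPM in Fosl2cKO, a log2 fold change of 1.41 ± 0.21 with an adjusted p of 0.34 by edgeR, where the other 27 neighbours tested ranged from -1.66 to 1.09. It was also counted higher outside the GC lineage. It was called in blood endothelial-like cells (75.7 and 99.2 against 258 and 372 CPM, log2 fold change 1.83 ± 0.27, adjusted p = 0.011), where 0.266% of genes were called, in interstitial-like cells (1.45 ± 0.28, adjusted p = 0.088, 0.207% called) and in NK or T-like cells (1.30 ± 0.27, adjusted p = 0.061, 0.517% called). Both Fosl2cKO libraries lay above both Fosl2F/F libraries in 13 of 14 classes, and the exception was luteal-like cells, at 56.9 and 43.0 against 119 and 56.7 CPM. Such an order was common in single classes, holding for 12.8% to 22.5% of the genes tested, and of the 1959 genes tested in every class 26 (1.33%) showed it in at least 13. The classes share the same 4 libraries. The log2 fold change ranged from 0.82 to 1.94 over the 14 classes, and its difference between classes was not tested. It was not called in the remaining classes, where the share of genes called was 0.225% in B lymphocyte-like, 0.0158% in dendritic-like, 0.125% in epithelial-like, 0.0355% in stromal-like, 0.0733% in theca-like and 0.269% in macrophage-like cells, 0.0995% in the unnamed Myh11 cluster, and 0% in lymphatic endothelial-like and pericyte or smooth muscle-like cells.

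**Figure D5:**
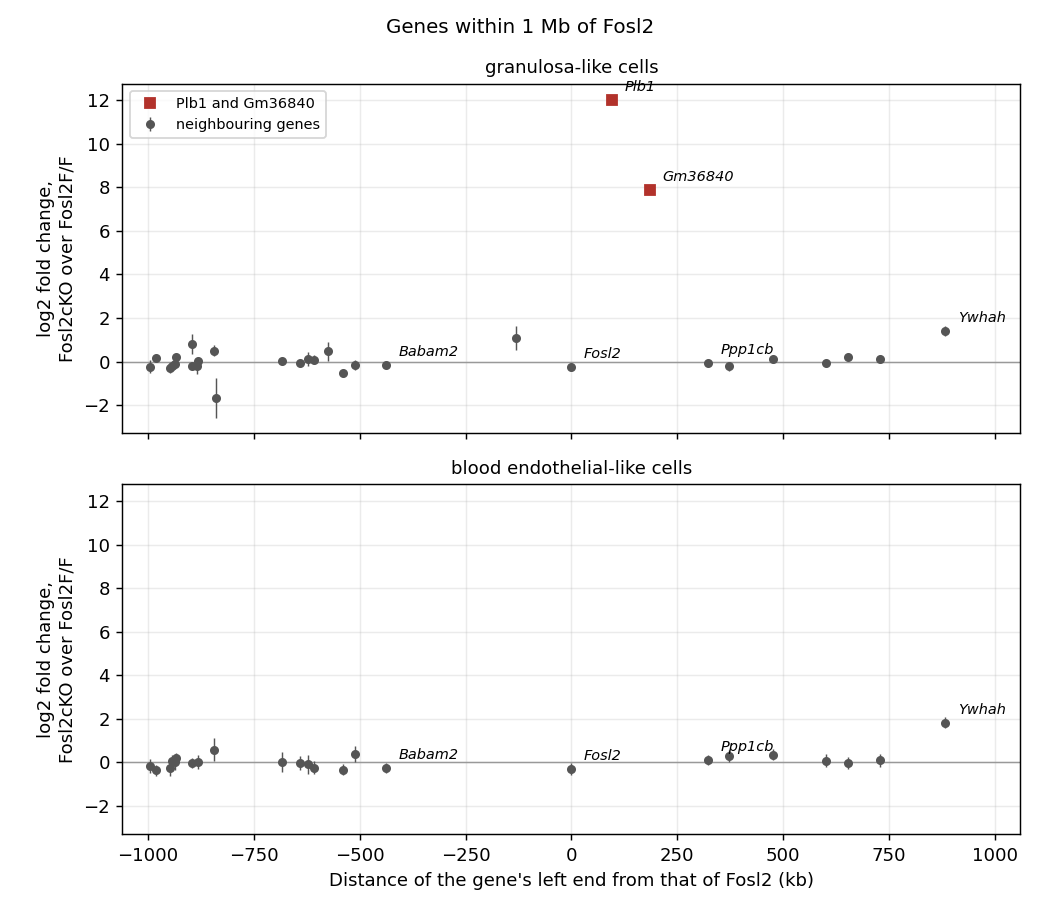
Log2 fold change of Fosl2cKO over Fosl2F/F (vertical axis) against the distance of each gene's left end from that of Fosl2 (kb, horizontal axis) for genes within 1 Mb that passed the filter, in GC-like and blood endothelial-like cells, with SE as bars for the neighbours. Plb1 and Gm36840 stand at 12.03 and 7.86 in GC-like cells and are not drawn in endothelial cells, where both Fosl2F/F libraries were at 0. Ywhah, at the right, lies at 1.41 and 1.83.

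Levels of other enzymes that act on phospholipids or related lipids are given for comparison with Plb1. On the same scale, of a list of 39 phospholipases and related lipases, 31 were tested in GC-like cells, where edgeR called 0 and DESeq2 called 1, Plbd2, beside its 1.01% of all genes. An unadjusted p under 0.05 was found for 3 of the 31 (Plbd2, Pla1a and Pla2g12a), beside 4.78% of all genes. Their median log2 fold change was -0.08, beside -0.02 for all genes. Plbd2, which encodes a lysosomal protein of the phospholipase B-like family, was at 17.3 and 22.2 CPM in Fosl2F/F and 36.5 and 38.1 CPM in Fosl2cKO (log2 fold change 0.92 ± 0.19, adjusted p = 0.58 by edgeR), and it was named after its values were seen. It was also counted higher outside GC-like cells, at 28.0 and 35.5 against 60.3 and 66.4 CPM in macrophage-like cells and at 14.8 and 16.2 against 31.8 and 24.5 CPM in interstitial-like cells, where both Fosl2cKO libraries lay above both Fosl2F/F libraries for 18.3% and 15.6% of all genes tested. Its groups overlapped in NK or T-like cells and in the unnamed cluster with Myh11. Its relative Plbd1 was at 22.8 and 17.2 against 15.2 and 12.96 CPM.

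The 4 listed enzymes with the highest CPM in GC-like cells were Pla2g4a, the cytosolic phospholipase A2 that releases arachidonic acid, Lpl, the lipoprotein lipase, Pnpla8 and Pla2g12a. Pla2g4a was at 85.8 and 107 against 94.3 and 95.9 CPM, Lpl at 73.9 and 59.8 against 64.1 and 88.5 CPM, Pnpla8 at 59.3 and 61.5 against 60.7 and 71.9 CPM, and Pla2g12a at 40.1 and 43.7 against 53.1 and 83.6 CPM. The first 3 overlapped between genotypes, and Plb1, at 464 and 246 CPM on the same TMM scale, was counted more often than each of them in the Fosl2cKO libraries. In luteal-like cells 24 of the list were tested, edgeR called 0, beside 0.00779% of the 12830 genes tested there. An unadjusted p under 0.05 was found for 3 of the 24, beside 10.8% of all genes.

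Over the 56 combinations of 14 classes and 4 libraries, the gene most like Gm36840 was Plb1 (Pearson r = 0.80, on log2 of CPM + 1), followed by Ces2a (0.72), Rgs7 (0.61), Hdgfl2 (0.57) and Dpysl4 (0.56). Plb1 itself was followed by Tmed2 (0.76), Bloc1s4 (0.74), C1qbp (0.73), Glrx5 (0.72) and Anp32b (0.72). The points share libraries and depth, so these values are a description only. Tmed2 was at 156 and 327 CPM on average in GC-like cells of Fosl2F/F and Fosl2cKO and at 129 and 214 CPM in macrophage-like cells, so its mean was also higher in Fosl2cKO macrophage-like cells. The same held there for Bloc1s4 (6.47 and 18.0 CPM), C1qbp (70.0 and 122), Glrx5 (14.4 and 44.6) and Anp32b (94.2 and 212). Plb1 in Fosl2cKO macrophage-like cells was at 12.3 CPM in the first library without its 2 cells of 10 or more Plb1 UMIs and at 15.3 CPM in the second. Ces2a, a carboxylesterase, was at 8.81 and 431 CPM in luteal-like cells but at 0.588 and 1.03 CPM in GC-like cells, where Plb1 was at 0.0749 and 360 CPM.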

How the data were processed

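Whole ovaries were profiled with 10x Chromium 3′ v3 libraries. The authors aligned reads with Cell Ranger to GRCm38 and deposited UMI counts per gene and barcode for each library. The version in the file headers differs from that in the methods, and 0 columns were left out. CellBender, which removes ambient RNA, is named without saying whether its correction is in these counts. Whether the background level above was measured before or after such a correction is therefore not known. Barcodes passed with 500 or more genes and more than 1000 UMIs, provided that mitochondrial genes gave less than 10% and hemoglobin genes less than 0.1% of the UMIs. Scrublet (scanpy 1.11.5) removed 0.8% of cells per 1000 as doublets (614, 4723, 412 and 450 cells). Libraries were normalized with sctransform 0.4.2, integrated in Seurat 5.3.0 (reciprocal PCA anchors, 3000 features, 30 dimensions) and clustered at resolutions of 0.8 (26 clusters) and, for 15797 GC-like cells, 0.5 (10 clusters), with Plb1, Gm36840 and Fosl2 left out of the clustering. A cluster was named for the marker list with the highest score (at least 0.2, leading by 0.05, on at least 3 markers), limits set with the data in hand.

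UMIs were summed per class and library. Classes with at least 20 cells in every library were compared with edgeR 4.0.16 (filterByExpr, TMM, quasi-likelihood test, Benjamini-Hochberg adjustment over all genes), with calls where the adjusted p was below 0.1 and the log2 fold change exceeded 0.25 in either direction. On simulated counts for GC-like cells, 22.5% of 200 genes changed by a factor of 2 were found over 17270 genes, and 16.7% of the calls were false. Intervals are exact (Poisson for counts, Clopper-Pearson for shares, 95%) and cover counting error only. A count of 0 was taken to allow up to 3 counts. Of the 32285 genes, 32158 had a position in GENCODE M21. Named genes were the members, Fosl2, Cyp19a1, the coding genes beside them, listed genes called in a class, the 4 listed enzymes highest in GC-like cells and the 5 genes most like each member. Mrpl33, Pla1a, Plbd1, Plbd2 and Gm7596 fall outside this rule and were named after their values were seen. The members and lists were chosen with earlier results of these data known. Alternatives were DESeq2 1.42.0, other cell filters, resolutions, scalings, thinning depths, a replicate block and leaving out each library.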

Additional observations from a re-analysis of the deposited data

Results flagged for a closer look

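Plb1 was also present in barcodes that the cell filters removed and that enter no comparison above. It was at 448 CPM in 1482 such barcodes of the first and at 567 CPM in 1752 of the second Fosl2cKO library, against 0.210 CPM in 2281 and 0 UMIs in 3857 barcodes of the Fosl2F/F libraries. These levels lie above the 357 and 340 CPM of the cells kept in the same libraries. Their median depth was 1240 and 1493 UMIs. Gm36840 was at 23.4 and 10.2 CPM in them, beside 5.54 and 3.75 CPM in the cells kept. Which cells they came from was not tested.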

How the results depend on the processing

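With 2 libraries per genotype, p-values rest on few degrees of freedom, and the depth of the second Fosl2F/F library limits shares of cells there. The Plb1 ratios in GC-like and luteal-like cells kept their direction and moved by less than the spread between libraries under every alternative run. On the log2 scale they ranged from 11.54 to 12.77 and from 11.70 to 12.95 when a library was left out. With a library left out the Gm36840 ratio ranged from 6.63 to 8.64, the lowest without the first and, at 6.94 as a bound, without the second Fosl2F/F library, since only 2 UMIs stand in those libraries, and it was 9.10 with cells over 2000 UMIs. The share of GC-like cells with Plb1 was 32.0% on average, 42.2% with cells thinned to 4000 UMIs and 22.3% with 1000 UMIs. The level in immune-like and endothelial-like cells was 17.3 CPM, and 13.7 CPM with 1.6% of cells per 1000 removed as doublets. The Fosl2 log2 fold change in GC-like cells was called in no alternative (-0.51 to -0.02 with a library left out). The counts of called neighbours and phospholipases, both 0, became 1 and 1 with DESeq2, 2 and 1 with no filter on low counts (Ywhah and Gm7596 of 36 neighbours, and Plbd2 of 38 phospholipases, beside 271 of all 25889 genes, 1.05%), and the neighbours ranged from 0 to 1 with a library left out (Ywhah, adjusted p = 0.0073 without the first Fosl2cKO library, beside 142 of all 18077 genes, 0.786%). Same-numbered libraries did not deviate together (r = -0.16 over 17270 genes). The replicate block gave a Fosl2 change of -0.27 and again 0 called neighbours and phospholipases, and it raised the genes called in GC-like cells from 1 to 29. Crossing the numbers, added after seeing the data, called 2.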
